A study of Mus musculus with 6 samples.

Results

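The cytosolic ribosomal protein genes encode the protein components of the ribosomes that translate messages outside the mitochondria. They were taken here as the genes named Rpl or Rps and a number (with the suffixes a, l, x or y), Rplp0, Rplp1, Rplp2, Rpsa and Fau, without loci named as pseudogenes, at a mean of at least 10 CPM (a gene's counts relative to the size of its library, corrected by TMM factors where single libraries are given) over the 6 libraries. This rule found 78 of the 49315 genes in the files, 46 of the large subunit and 32 of the small subunit. A total of 84 names fitted, and 6 of them were below the minimum. Just inside the minimum were Rps4l at a mean of 10.2 CPM and, far above it, Rpl24 at 31.7 CPM, and just outside was Rps27l at 7.15 CPM. GENCODE M21 and RefSeq annotate 77 of the 78 members as protein coding, and Rps4l, despite its name, as a transcribed pseudogene.

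The libraries came from cerebral cortex of wild type mice. The shFabp7 group (3 libraries) had received AAV-PHP.eB-Gfap-GFP-shFABP7, a vector whose shRNA targets Fabp7, which encodes a lipid carrier made by astrocytes and neural progenitors. The shScr group (3 libraries) had received AAV-PHP.eB-Gfap-GFP-shScr, the same vector with a scrambled shRNA. Mice of both groups got their vector into the blood at 21 days of age, and from 4 months on LPS (lipopolysaccharide, the endotoxin of Gram-negative bacteria) at 1 mg/kg weekly for 3 weeks. Cortex was collected 24 h after the final LPS dose. Both groups therefore carried a vector and had received LPS, and no group without LPS was compared. The Gfap promoter drives the shRNA mainly in astrocytes, whereas the RNA came from all cells of the tissue, so that fewer cells of a type and less RNA per cell cannot be told apart. Nothing in the labels says that the libraries came from separate animals, and p-values therefore measure only the spread between these libraries, which may be technical.

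Every ribosome has a small subunit, which reads the message and checks the pairing of codon and transfer RNA, and a large subunit, which joins the amino acids and holds the tunnel through which the new chain leaves. The proteins are needed in matched numbers, and cells are known to control their production together. Most of the messages begin with a cytosine followed by an unbroken run of pyrimidines (C or T in the DNA), the 5′ terminal oligopyrimidine or TOP motif, by which the kinase mTORC1 and the protein LARP1 regulate their translation and stability. In the brain, ribosomal protein messages are present in neurons and glia and also travel into neurites and astrocyte processes.

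The letters around the transcription start are shown because a pyrimidine run there is the feature for which these genes are best known. RefSeq promoter windows (build GRCm38.p6) matched 57 of the 78 members by symbol. Each line gives the 15 bases before and the 15 bases from the annotated start on, 5′ to 3′ on the gene's own strand, with the longest run of C or T in capitals. The first 10 genes have long runs and come from both subunits, and the last 2, Rpl19 and Rps19, have short ones.
Fau, chr19:6057932-6057961, plus strand: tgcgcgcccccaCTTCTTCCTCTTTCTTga
Rpl13a, chr7:45128731-45128760, minus strand: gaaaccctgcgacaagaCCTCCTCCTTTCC
Rpl14, chr9:120571502-120571531, plus strand: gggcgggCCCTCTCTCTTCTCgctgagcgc
Rpl15, chr14:18270972-18271001, minus strand: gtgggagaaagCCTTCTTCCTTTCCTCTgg
Rpl28, chr7:4792950-4792979, plus strand: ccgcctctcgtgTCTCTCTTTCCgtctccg
Rpl35, chr2:39005117-39005146, minus strand: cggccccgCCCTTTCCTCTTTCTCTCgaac
Rplp2, chr7:141447636-141447665, plus strand: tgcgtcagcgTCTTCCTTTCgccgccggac
Rps10, chr17:27635230-27635259, minus strand: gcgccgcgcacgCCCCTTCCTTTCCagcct
Rps18, chr17:33955651-33955680, minus strand: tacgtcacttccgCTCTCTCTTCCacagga
Rps6, chr4:86857353-86857382, minus strand: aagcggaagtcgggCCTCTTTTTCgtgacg
Rpl19, chr11:98026695-98026724, plus strand: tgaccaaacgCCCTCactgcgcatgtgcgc
Rps19, chr7:24884577-24884606, plus strand: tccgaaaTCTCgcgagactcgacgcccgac

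A run of 6 or more C or T on the gene's strand lay in these 30 bases in 33 of the 57 members (57.9%), against 29.1% of the 27025 promoter windows of all genes in the table. A run of 10 or more was found in 17 members (29.8%), against 5.19% of all windows. In the window from 250 bases before to 50 bases after the start, CCGGAAG, a core of ETS factor motifs, was found on either strand in 22 members (38.6%), against 9.12% of all windows. Its reverse complement can share letters with a pyrimidine run. GGGCGG, a GC box, was found on either strand in 34 members (59.6%), against 35.9% of all windows, and AAGATGGC, a core of the YY1 motif, in 5 (8.77%), against 2.88%. The members with a run of 10 or more had a median log2 fold change (shFabp7 over shScr) of -0.11 (n = 17), and the matched members without one had -0.13 (n = 40). The 22 members with CCGGAAG had a median of -0.12 and the 35 without it -0.13.

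The libraries held 16966118, 16914012 and 18991235 counts in shFabp7 cortex (replicates 1 to 3) and 17789433, 18760154 and 18105596 in shScr cortex. Fabp7, the targeted gene, had 5.56, 2.49 and 3.52 CPM in shFabp7 cortex, against 26.3, 15.2 and 15.8 CPM in shScr cortex, with no overlap. Its log2 fold change of -2.31 (SE 0.35) had an adjusted p of 0.0704 in edgeR's quasi-likelihood test and of 5.35e-13 in DESeq2. An exact two-sided permutation test of Fabp7 over the libraries gave p = 0.1, the smallest value that 3 against 3 allows. The cortical neuron markers Camk2a and Slc17a7 were abundant in every library. The library shScr 1 stood apart, with a chi-square per degree of freedom of 13.7 to 32.7 against the other 5 libraries, where pairs without it had 5.84 to 16.7. It also had the highest level of Pmch (13.3 CPM, against 0.179 to 1.28 CPM), a hypothalamic neuropeptide gene. The medians, the shares and the value of Rps4l are therefore also given without it.

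The ribosomal protein genes of both subunits lay slightly but almost uniformly lower in shFabp7 cortex, with a median change of -8.18% in the large and -8.17% in the small subunit, and no single member passed the test. The log2 fold change was below 0 in 45 of 46 large subunit members and in 32 of 32 small subunit members, against 51.5% of the 17185 genes tested. The median log2 fold change was -0.12 in each subunit and -0.01 over all genes tested. In edgeR's quasi-likelihood test, which passed 0.0582% of all genes tested as lower in shFabp7 cortex and 0.0582% as higher at an adjusted p of 0.05, 0 of 46 large and 0 of 32 small subunit members passed. At an unadjusted p under 0.05, 14 large and 7 small subunit members were lower and 0 were higher, against 8.32% of all genes lower and 8.44% higher. DESeq2 passed 0 large subunit members and 1 small subunit member, Rps4l, as lower and 0 as higher, against 1.91% of the genes for which it gave an adjusted p as lower and 2.38% as higher. Since members share their libraries, their common direction is not 78 independent observations. Without shScr 1, the medians were -0.12 in the large and -0.11 in the small subunit, and 76 of 78 members were below 0.

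**Figure D1:**
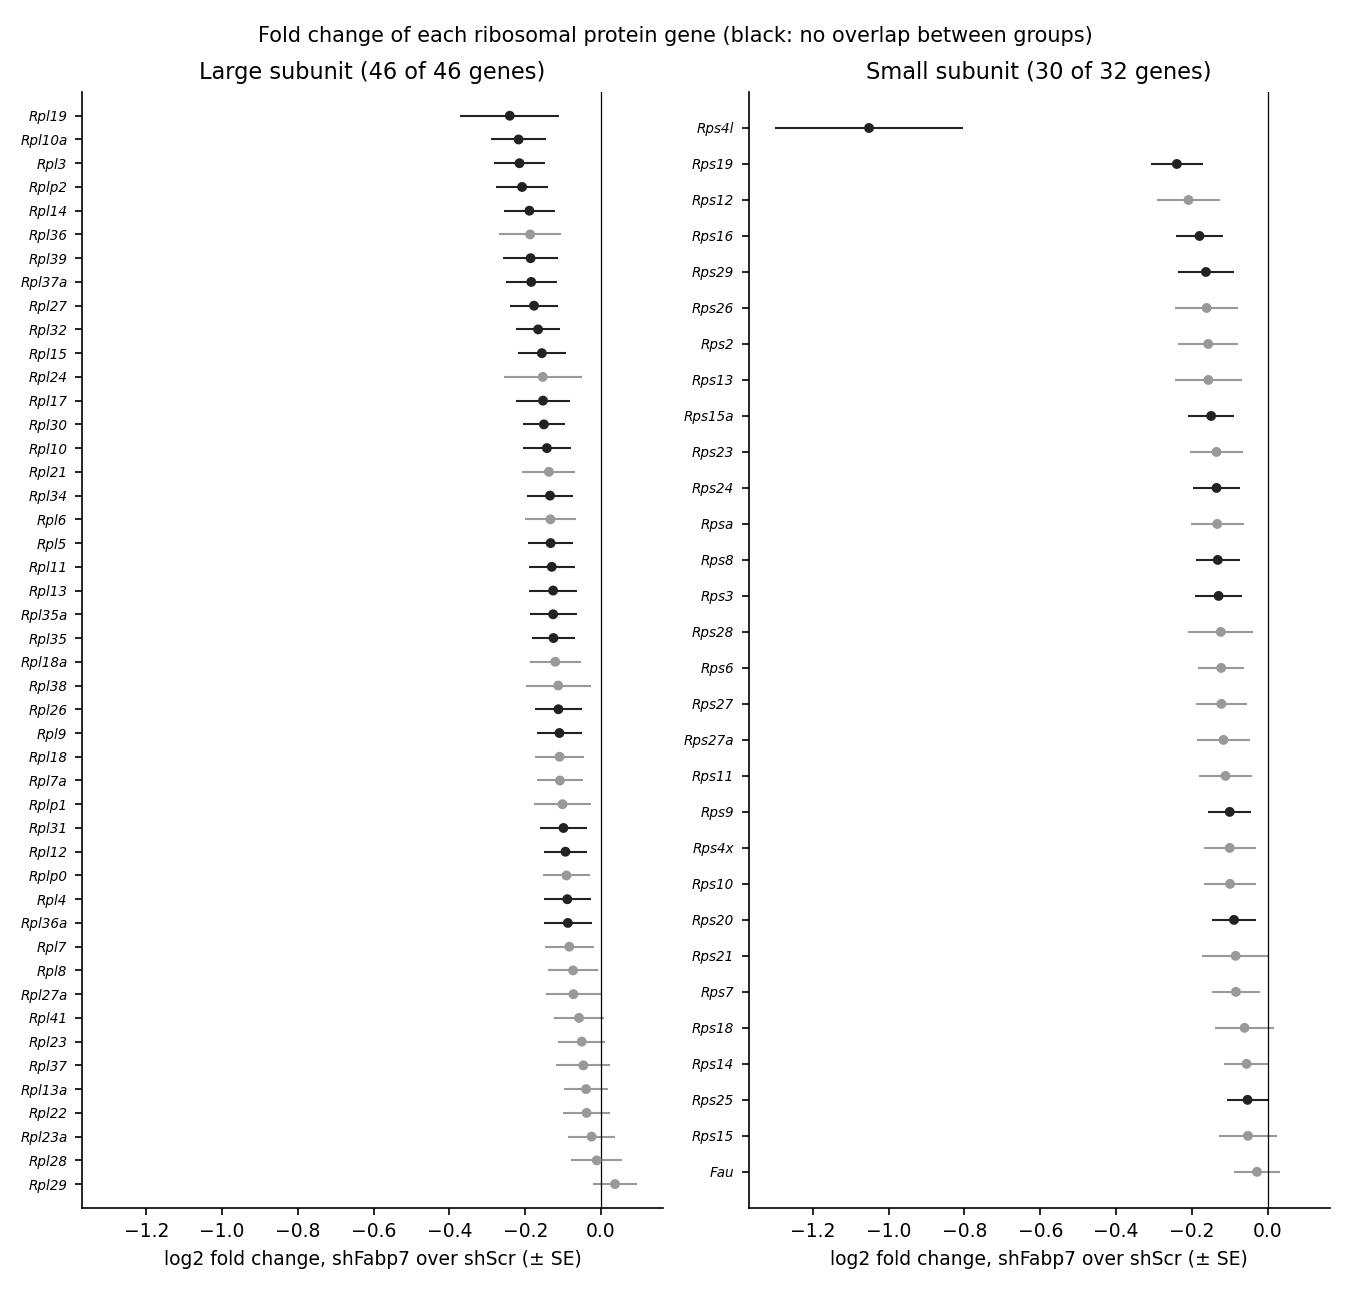
Log2 fold change of each ribosomal protein gene, shFabp7 over shScr, with its standard error as a horizontal line, for the large subunit (left, 46 genes) and 30 of the 32 genes of the small subunit (right). Black points are genes whose 3 shFabp7 libraries all lay below the 3 shScr libraries. Every point but that of Rpl29 lies left of 0, and Rps4l stands far to the left of the others.

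**Figure D2:**
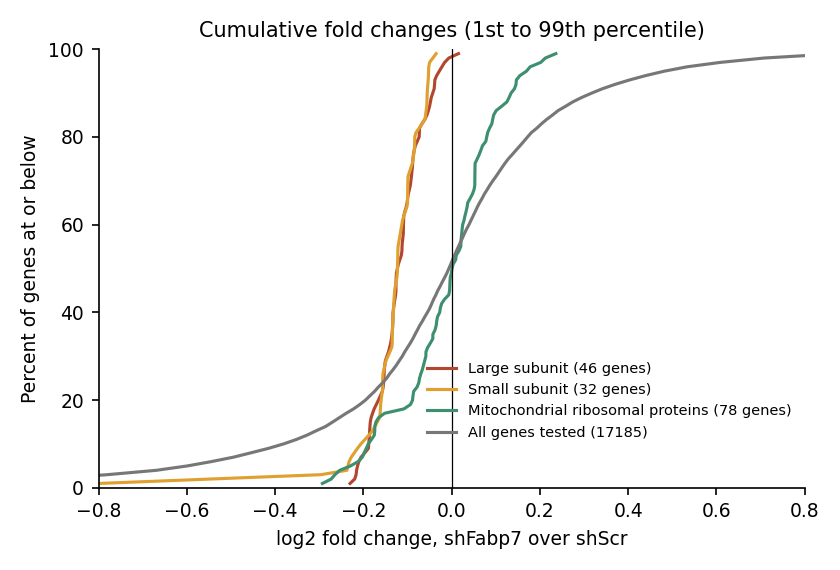
Cumulative distribution of the log2 fold change (x axis, shFabp7 over shScr; y axis, percent of genes at or below) for large subunit, small subunit, mitochondrial ribosomal protein genes and all genes tested. The curves of the cytosolic subunits run together, left of 0 and steeper than that of all genes, and the mitochondrial curve crosses 0 near its middle.

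The fold changes were narrowly spread. Large subunit members ranged from -0.24 (Rpl19) to 0.04 (Rpl29), and small subunit members without Rps4l from -0.24 (Rps19) to -0.03 (Fau). The median SE of a member's log2 fold change was 0.06 in the large and 0.07 in the small subunit, against 0.12 over all genes tested. The median coefficient of variation within a group was 5.47% in shFabp7 and 4.31% in shScr libraries for the members, against 8.06% in shFabp7 and 10.4% in shScr libraries for all genes tested. The members were also more abundant. Their mean log2 CPM (with a small constant added) was 6.74 to 6.99 per library, against 4.32 to 4.34 for all genes tested. Genes of like abundance were not compared. The members are on 20 chromosomes, 14 of them on chromosome 7. Across members the log2 fold change had a Spearman correlation of -0.01 with the gene length in the files and of 0.20 with mean log2 CPM (n = 78, all from the same 6 libraries). The 78 mitochondrial ribosomal protein genes, which build the separate ribosome of the mitochondrion, centred on a log2 fold change of 0.00073 (median), with 38 below 0 and a range of -0.34 to 0.31.

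As a share of all counts, the large subunit members took 0.617%, 0.556% and 0.593% in the shFabp7 libraries, against 0.671%, 0.6395% and 0.675% in the shScr libraries. The small subunit members took 0.399%, 0.353% and 0.379% in the shFabp7 libraries, against 0.432%, 0.401% and 0.437% in the shScr libraries. Neither subunit's shares of the raw totals overlapped between the groups, though the small subunit's shares of shFabp7 1 and shScr 2 were close. The means were 0.589% ± 0.0304 in shFabp7 and 0.662% ± 0.0197 in shScr cortex for the large subunit and 0.377% ± 0.0232 in shFabp7 and 0.423% ± 0.0193 in shScr cortex for the small subunit (SD, n = 3 each). The ratio of shFabp7 to shScr was 0.889 for the large and 0.890 for the small subunit, and 0.895 and 0.899 without shScr 1. On this scale of raw totals the median log2 fold change of all genes tested was -0.06. With TMM scaling, the large subunit members summed to 6254, 5724 and 6012 CPM in shFabp7, against 6501, 6382 and 6674 CPM in shScr. The small subunit members summed to 4045, 3626 and 3841 CPM in shFabp7, against 4183, 4004 and 4315 CPM in shScr. There, shFabp7 1 lay above shScr 2. The counts of the large over the small subunit stood at 1.55, 1.58 and 1.57 in shFabp7 and 1.55, 1.59 and 1.55 in shScr libraries, so that the balance of the subunits differed less between the groups than among libraries.

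**Figure D3:**
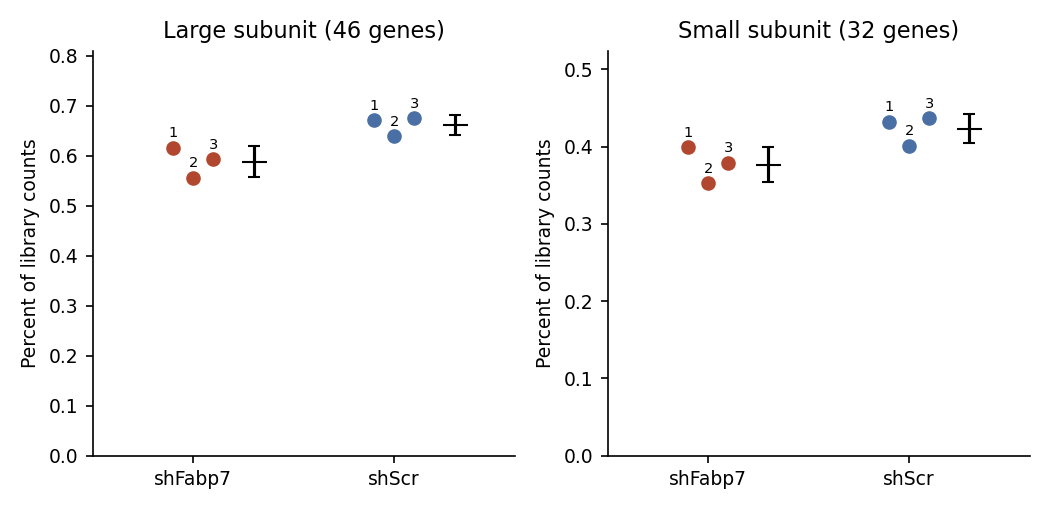
Percent of each library's counts that fell in large subunit genes (left) and small subunit genes (right), one numbered point per library, with the mean and SD beside each group. The shFabp7 points lie between 0.556% and 0.617% (large) and 0.353% and 0.399% (small), below all shScr points.

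The libraries differed among themselves within a group as well. The median deviation of the large subunit members from their own mean over the 6 libraries (log2 CPM) was 0.00094, -0.12 and -0.06 in shFabp7 replicates 1 to 3 and 0.05, 0.03 and 0.11 in shScr replicates 1 to 3. For the small subunit the medians were 0.0098, -0.13 and -0.05 in shFabp7 and 0.07, 0.0032 and 0.11 in shScr libraries. By this measure the groups did not overlap for the large subunit, and for the small subunit shFabp7 1 lay just above shScr 2. Members above their own mean numbered 45, 0 and 10 of 78 in the shFabp7 libraries, against 65, 49 and 76 in the shScr libraries. The library shFabp7 2 was the lowest for 64 of the 78 members, and shScr 3 the highest for 52. Without shFabp7 2 the median log2 fold change was -0.09 in each subunit, with 71 of 78 members below 0, and without shScr 3 it was -0.09 in the large and -0.10 in the small subunit, with 74 of 78 below 0. Of the members described below, leaving out shFabp7 2 brought these nearer to 0 by over 1.5 times without turning their sign. The log2 fold change was then -0.07 for Rplp1 and Rps23, -0.08 for Rpl17, Rpl35a and Rpsa, -0.09 for Rps26, -0.10 for Rps2, -0.05 for Rps7, -0.04 for Rpl8 and Rps10, -0.03 for Rps25 and -0.02 for Rpl22. Leaving out shScr 3 brought Rplp0 to -0.06, Rplp1 to -0.06, Rps26 to -0.10, Fau to -0.0090 and Rpl22 to -0.0079.

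**Figure D4:**
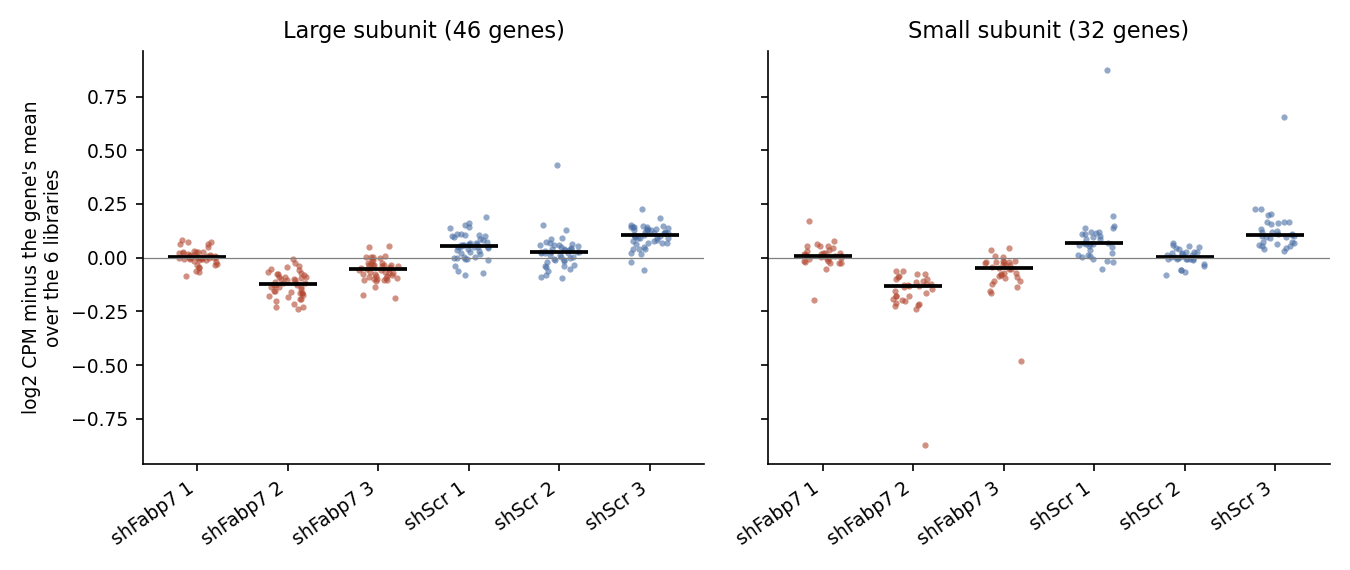
Deviation of each member from its own mean over the 6 libraries (log2 CPM, one point per gene), with the median of each library as a bar, for the large subunit (left) and the small subunit (right). The members of a library move together: in shFabp7 2 they lie below their means and in shScr 3 almost all lie above.

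All 3 shFabp7 libraries lay below all 3 shScr libraries in 25 of 46 large subunit members (54.3%) and 12 of 32 small subunit members (37.5%), against 11.5% of all genes tested. The opposite pattern occurred in 0 members, against 11.4% of all genes tested. Here too, genes of like abundance were not compared.

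Among the large subunit members with the lowest fold changes was Rpl3, a protein that reaches close to the catalytic centre. Rpl3 had 438, 393 and 420.4 CPM in shFabp7 cortex, against 498, 462 and 493 CPM in shScr cortex, without overlap (log2 fold change -0.22, SE 0.07, adjusted p 0.178 by edgeR's quasi-likelihood test). The start of its gene overlaps Syngr1 on the opposite strand, which averaged 579 ± 46.2 CPM in shFabp7 and 519 ± 45.0 CPM in shScr cortex (SD, n = 3 each), in the other direction. Rpl10a, a protein of the L1 stalk, which guides spent transfer RNA out, had 68.1, 59.1 and 67.2 CPM in shFabp7 cortex, against 78.0, 71.7 and 76.4 CPM in shScr cortex, also without overlap (log2 fold change -0.22, SE 0.07, adjusted p 0.189). Rpl19, whose long helix reaches towards the small subunit, had 137, 128 and 134 CPM in shFabp7 cortex, against 139.5, 193 and 138 CPM in shScr cortex. The groups did not overlap, but 1 library, shScr 2, stood far above the rest, and the log2 fold change of -0.24 (SE 0.13, adjusted p 0.397) was -0.06 without it.

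The lateral stalk of the large subunit draws elongation factors to the ribosome. Its base protein Rplp0 had 161, 149 and 154 CPM in shFabp7 cortex, against 158, 163 and 172 CPM in shScr cortex, with overlap (log2 fold change -0.09). Rplp1, an acidic stalk protein, had 288, 263 and 279 CPM in shFabp7 cortex, against 309, 269 and 313 CPM in shScr cortex, again with overlap (log2 fold change -0.10, SE 0.08). Its partner Rplp2 had 83.3, 73.3 and 71.7 CPM in shFabp7 cortex, against 87.7, 86.0 and 90.1 CPM in shScr cortex, without overlap (log2 fold change -0.21, SE 0.07, adjusted p 0.192 by edgeR's quasi-likelihood test). Rpl12, which binds ribosomal RNA at the stalk base, had 158, 149.7 and 149.6 CPM in shFabp7 cortex, against 162, 159 and 168 CPM in shScr cortex (log2 fold change -0.09). All 4 stalk genes were below 0, 0 passed edgeR's quasi-likelihood test or DESeq2, and 1 (Rplp2; 25%) had an unadjusted p under 0.05, against 26.9% of the 78 members. Differences between the fold changes of stalk members were not tested.

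Rpl5 and Rpl11 bind 5S ribosomal RNA and, when free of the ribosome, inhibit Mdm2, the ligase that degrades p53. Rpl5 had 169, 159 and 171 CPM in shFabp7 cortex, against 181, 177 and 189 CPM in shScr cortex, and Rpl11 had 137, 124 and 127 CPM in shFabp7 cortex, against 145, 138 and 142 CPM in shScr cortex. Both pairs of groups were free of overlap, and both log2 fold changes were -0.13 (SE 0.06 each, adjusted p 0.294 and 0.314 by edgeR's quasi-likelihood test).
The 8 proteins around the peptide tunnel and its exit were below 0 in 8 of 8 genes (median log2 fold change -0.12). Rpl4, which lines the tunnel, had 361, 343 and 348 CPM in shFabp7 cortex, against 362, 385 and 371 CPM in shScr cortex (log2 fold change -0.09), where shFabp7 1 lay just under shScr 1. Rpl17, at the tunnel exit, had 148, 127 and 149.8 CPM in shFabp7 cortex, against 161, 155 and 157 CPM in shScr cortex, without overlap (log2 fold change -0.15, SE 0.07), but the value was -0.08 without shFabp7 2, its lowest library. Rpl23a, to which the signal recognition particle docks, had 98.1, 92.1 and 96.7 CPM in shFabp7 cortex, against 102, 92.3 and 97.6 CPM in shScr cortex, so that the groups overlapped (log2 fold change -0.02). Its sign turned to above 0 without shScr 1 or without shFabp7 2.

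At the upper end of the large subunit was Rpl29, a small basic protein. It had 94.2, 93.5 and 97.6 CPM in shFabp7 cortex, against 89.2, 96.2 and 92.6 CPM in shScr cortex, and was the member with a log2 fold change above 0 (0.04, SE 0.06, adjusted p 0.790 by edgeR's quasi-likelihood test). With library totals in place of TMM factors it was -0.01, and without shScr 1 it was 0.01. Rpl28, which budding yeast lacks, had 119, 113 and 123 CPM in shFabp7 cortex, against 114, 116 and 128 CPM in shScr cortex, with overlap (log2 fold change -0.01). Its sign turned without shScr 3 or without shFabp7 2, and its start carries one of the pyrimidine runs printed above. Rpl22, an RNA-binding protein of the subunit's surface, followed with a log2 fold change of -0.04 (SE 0.06). Rpl8, which lies close to the catalytic centre, had 206, 181 and 187 CPM in shFabp7 cortex, against 203, 199 and 202 CPM in shScr cortex, where shFabp7 1 was the highest of the 6 libraries.

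**Figure D5:**
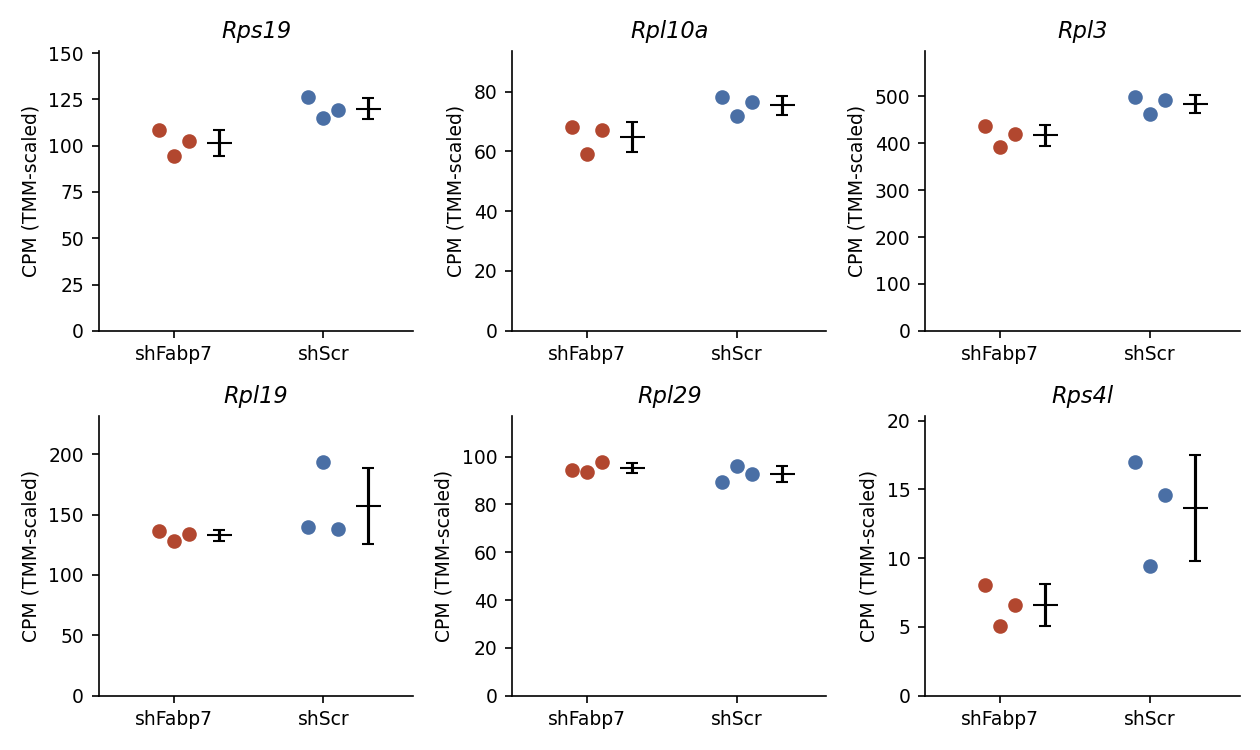
Level in each library (CPM after TMM scaling) of 6 members, with the mean and SD beside each group; points run from replicate 1 to 3. In Rps19, Rpl10a and Rpl3 the shFabp7 points lie below the shScr points, Rpl19 has 1 high library (shScr 2, 193 CPM), Rpl29 overlaps, and Rps4l is the lowest in level.

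In the small subunit, Rps19 and Rps12 were among the members with the lowest fold changes after Rps4l. Rps19, a protein of the subunit's head whose loss of 1 copy causes Diamond-Blackfan anaemia in people, had 108, 94.3 and 102 CPM in shFabp7 cortex, against 126, 115 and 119 CPM in shScr cortex, without overlap (log2 fold change -0.24, SE 0.07, adjusted p 0.150 by edgeR's quasi-likelihood test). Rps12, a protein of the beak of the head, had 91.9, 76.1 and 83.4 CPM in shFabp7 cortex, against 97.8, 89.4 and 103 CPM in shScr cortex, where shFabp7 1 lay above shScr 2 (log2 fold change -0.21, SE 0.08). The start of Rps19 carries a pyrimidine run of 4 bases, the shortest of those printed. Rplp2 and Rpl14, with printed runs of 10 and 14 bases, had log2 fold changes of -0.21 and -0.19. A relation of run length to fold change was not tested.

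The message enters the small subunit past Rps2, Rps3 and Rps30, which is made from Fau as a fusion with a ubiquitin-like protein. Rps2 had 246, 209.6 and 228 CPM in shFabp7 cortex, against 259, 234 and 269 CPM in shScr cortex, with overlap (log2 fold change -0.16). Rps3 had 242, 225 and 231 CPM in shFabp7 cortex, against 258, 244 and 261 CPM in shScr cortex, without overlap (log2 fold change -0.13). Fau, whose start has the longest run printed for the small subunit, had 133, 122 and 134 CPM in shFabp7 cortex, against 131, 129 and 135 CPM in shScr cortex, so that the groups overlapped (log2 fold change -0.03, SE 0.06), and its sign turned without shFabp7 2. The message leaves past Rps26, Rps14 and Rpsa, also known as the laminin receptor, whose log2 fold changes were -0.16, -0.06 and -0.13. All 3 overlapped between the groups. Rpsa had 264, 232 and 251 CPM in shFabp7 cortex, against 281, 259 and 279 CPM in shScr cortex.

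Of the 9 listed genes known from Diamond-Blackfan anaemia in people, Rps19, Rpl5 and Rpl11 among them, 9 were below 0, with a median log2 fold change of -0.13. Of these, 0 passed edgeR's quasi-likelihood test or DESeq2, and 2 (22.2%) had an unadjusted p under 0.05 and were lower, against 26.9% of the 78 members and 8.32% of all genes tested. Rps24 had 162, 147 and 151 CPM in shFabp7 cortex, against 168, 162 and 174 CPM in shScr cortex, with shFabp7 1 just under shScr 2 (log2 fold change -0.13). Rps7 stood at -0.08 and Rps10 at -0.10. Rpl35a had 122, 109.9 and 120.4 CPM in shFabp7 cortex, against 132, 127 and 126 CPM in shScr cortex, without overlap (log2 fold change -0.13).

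The other named members of the small subunit were the abundant and the least shifted ones. Rps15, which reaches towards the decoding site, had 175, 154 and 169 CPM in shFabp7 cortex, against 162, 165 and 188 CPM in shScr cortex, with overlap (log2 fold change -0.05), and its sign turned without shScr 3 or without shFabp7 2. Rps25, known for its part in starting translation at internal sites, had 125, 119 and 122 CPM in shFabp7 cortex, against 125, 126 and 128 CPM in shScr cortex, a log2 fold change of -0.05 (SE 0.05). Rps23, a protein of the decoding centre, had a log2 fold change of -0.13 with overlap.
Per length, as TPM (counts divided by gene length, scaled to the same sum in every library), the highest mean levels were 2055 TPM for Rplp1, 958 TPM for Rps15 and 814 TPM for Rpl8, and the lowest were 38.5 TPM for Rps4l and 56.0 TPM for Rps20. The length in the files counts every annotated exon of a gene, so that members with long minor isoforms have low TPM.

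Rps4l stood apart from the other 77 members in level and in fold change. It had 8.07, 5.05 and 6.62 CPM in shFabp7 cortex, against 17.0, 9.42 and 14.6 CPM in shScr cortex, with a mean of 6.58 ± 1.51 in shFabp7 and 13.7 ± 3.86 in shScr cortex (SD, n = 3 each). The groups did not overlap, and the spread within shScr cortex was wide. The log2 fold change of -1.05 (SE 0.25) had adjusted p-values of 0.120 (edgeR's quasi-likelihood test), 0.00176 (DESeq2) and 0.00938 (edgeR without shScr 2), and over the alternatives run the adjusted p ranged from 1.5e-09 with no filter to 0.423 without shFabp7 2. Without shScr 1 the log2 fold change of Rps4l was -0.86 (adjusted p 0.136). The locus lies at chr6:148354656-148355598 on the plus strand and within the span of Tmtc1 on the other strand, which averaged 109.9 ± 4.87 CPM in shFabp7 and 94.4 ± 15.0 CPM in shScr cortex (SD, n = 3 each). Its annotated transcript is identical to that of Rps4x at 79.7% of 847 aligned bases. Rps4x, the X-linked gene of the Rps4 protein, had 172, 154 and 165 CPM in shFabp7 cortex, against 168, 169.6 and 188 CPM in shScr cortex, with overlap (log2 fold change -0.10, SE 0.07). The counts of Rps4l were 4.69%, 3.28% and 4.01% of those of Rps4x in shFabp7 libraries, against 10.1%, 5.55% and 7.73% in shScr libraries, so the ratio did not overlap either. The sources used here do not say how reads shared by such copies were counted, and the value of Rps4l is uncertain to that extent. Without Rps4l the small subunit median was -0.12 (n = 31), and the lowest adjusted p among the rest was 0.150.

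The 6 names below the minimum were not members. Rps27l, a close copy of Rps27 that p53 induces, averaged 7.05 ± 0.490 CPM in shFabp7 and 7.26 ± 0.567 CPM in shScr cortex (SD, n = 3 each), and its log2 fold change was -0.04. Its counts were 11.99% ± 1.23 of those of Rps27 in shFabp7 and 11.3% ± 1.10 in shScr libraries (SD, n = 3 each). Rpl3l, a form of striated muscle, averaged 1.66 ± 0.0522 CPM in shFabp7 and 1.39 ± 0.426 CPM in shScr cortex (SD, n = 3 each). Rpl10l had 0 counts in all 6 libraries, which allows up to 3 counts a library, and Rpl39l, Rpl6l and Rpl32l had at most 9. The 282 loci named as pseudogenes of these families took 0.00313% to 0.00371% of the counts in shFabp7 libraries and 0.00397% to 0.00458% in shScr libraries. A total of 15 members overlap a gene of over 1 CPM on the opposite strand and 0 on the same strand, and without a stated strand setting their reads cannot be told apart.

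Ribosomal proteins whose names the rule did not spell were below 0 in 5 of 6 genes (median log2 fold change -0.11). Of these, 0 passed edgeR's quasi-likelihood test or DESeq2. At an unadjusted p under 0.05 there were 2 lower (33.3%) and 0 higher, against 8.32% and 8.44% of all genes tested. Rps3a1 had 268.5, 232 and 254.5 CPM in shFabp7 cortex, against 264, 257 and 278 CPM in shScr cortex (log2 fold change -0.08, and -0.03 without shFabp7 2). Rack1, a scaffold on the head of the small subunit, had 120, 108 and 115 CPM in shFabp7 cortex, against 124.5, 128 and 125 CPM in shScr cortex, without overlap (log2 fold change -0.14). Of 14 translation factors and related genes whose messages carry a TOP motif, 11 were below 0 (median -0.10). Eef1a1, the factor that brings transfer RNA to the ribosome, averaged 1534 ± 87.0 CPM in shFabp7 and 1793 ± 141 CPM in shScr cortex (SD, n = 3 each), without overlap (log2 fold change -0.22, SE 0.08, adjusted p 0.203 by edgeR's quasi-likelihood test). Eef2, the translocation factor, had a log2 fold change of 0.06, against the direction of the ribosomal proteins. EdgeR's quasi-likelihood test passed 0 of the 14. At an unadjusted p under 0.05 there were 4 lower (28.6%) and 0 higher, against 8.32% and 8.44% of all genes tested. DESeq2 passed 2 as lower, against 1.91% of the genes for which it gave an adjusted p. They were Npm1 (log2 fold change -0.27, DESeq2 adjusted p 0.0413) and Hnrnpa1 (log2 fold change -0.22, DESeq2 adjusted p 0.04996), named after their values were seen.

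Of 8 host genes of small nucleolar RNAs, 6 were below 0 (median log2 fold change -0.12), with Gas5 at -0.18 and Snhg12 at -0.25. Of 21 genes of ribosome biogenesis, 13 were below 0 (median -0.02), with the nucleolar protein Ncl at -0.11 and Ubtf, a factor of RNA polymerase I, at 0.08. Of 16 genes of the mTORC1 pathway, 7 were below 0 (median 0.02), with Sesn3 at -0.07 and Larp1, the TOP-binding protein, at 0.0067. The signs of Sesn3 and Larp1 turned without shScr 1, and that of Larp1 also without shFabp7 1 and with library totals. Without shScr 1, Ubtf was at 0.0042. Of 3 chaperones of ribosomal proteins, 2 were below 0, among them Tsr2, which carries Rps26, at -0.12, and Heatr3, which acts on Rpl5, at -0.06. Tsr2 was at -0.08 without shScr 1 and Heatr3 at -0.0099 without shFabp7 2. Of the 48 genes in these 4 lists, 0 passed edgeR's quasi-likelihood test or DESeq2, and at an unadjusted p under 0.05 there were 4 lower (8.33%) and 2 higher (4.17%), against 8.32% and 8.44% of all genes tested.

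Markers of several cell types and regions differed alongside the ribosomal proteins. Excitatory neuron markers were above 0 in 8 of 8 genes (median log2 fold change 0.44), summing to 5748 to 6564 CPM in shFabp7 and 3935 to 5275 CPM in shScr libraries, lowest in shScr 1. Camk2a stood at 0.37 and Slc17a7, whose groups overlapped, at 0.24, which was 0.11 without shScr 1. Microglia markers were below 0 in 7 of 8 genes (median -0.24), summing to 416 to 462 CPM in shFabp7 and 477 to 502 CPM in shScr libraries. Csf1r stood at -0.07 and at -0.04 without shScr 1 or without shFabp7 2. Meningeal fibroblast markers were below 0 in 5 of 6 genes (median -0.12), summing to 112, 81.0 and 87.5 CPM in shFabp7 and 137, 108 and 139.8 CPM in shScr libraries. The ribosomal protein shares had the same order within each group. This match was picked out of several lists after the values were seen, rests on 3 libraries a group and was not tested. Igf2, the largest part of the meningeal sum, had 77.7, 65.7 and 65.3 CPM in shScr libraries, which is another order. Dcn, named after its values were seen, had 13.6, 6.81 and 27.8 CPM there. Igf2 stood at -0.66 and Col1a2 at -0.0084, and the sign of Col1a2 turned without shScr 1 or 3 or without shFabp7 2 or 3. Choroid plexus and ependymal markers were below 0 in 5 of 5 tested genes of 8 listed (median -0.71), summing to 16.0, 9.12 and 12.6 CPM in shFabp7 and 34.2, 14.6 and 26.9 CPM in shScr libraries. In shScr libraries this order was not that of the ribosomal protein shares. Clic6 stood at -1.81 with overlapping groups, a value that rested on shScr 1 (16.7 CPM, the highest) and was -0.25 without it. Foxj1 stood at -0.55, and Otx2 had 0 counts in shFabp7 2 and 3, which allows up to 3 counts a library.
Hippocampal markers were below 0 in 6 of 8 genes (median -0.56), summing to 615 to 714 CPM in shFabp7 and 579 to 722 CPM in shScr libraries, with Zbtb20 at -0.39 and Dkk3 at 0.53. The groups of Dkk3 overlapped, and without shScr 1 or without shScr 2 its log2 fold change was 0.23 or 0.85. Dkk3, against the direction of most of the list, carries a large part of the sum. It had 452, 393 and 344 CPM in shFabp7 and 143, 379 and 298 CPM in shScr libraries. The hippocampal sums therefore say little about the other listed genes. Their log2 fold changes reached -3.78, in a gene of low level, and DESeq2 passed 2 of the 8 as lower. Thalamic and hypothalamic markers were below 0 in 5 of 7 tested genes of 9 listed (median -0.54), summing to 105 to 133 CPM in shFabp7 and 117 to 212 CPM in shScr libraries, with Rora at 0.22 and Prkcd at -0.17 (0.10 and -0.10 without shFabp7 2). Rora, against the direction of most of the list, carries much of this sum. It had 69.5, 101 and 90.9 CPM in shFabp7 and 70.2, 86.0 and 68.7 CPM in shScr libraries. The lowest log2 fold change of the list was -5.03, in a gene with overlapping groups, and DESeq2 passed 2 of the 7 as lower. Astrocyte markers were below 0 in 5 of 8 genes (median -0.09), summing to 4752 to 5225 CPM in shFabp7 and 4546 to 5030 CPM in shScr libraries, with Slc1a2 at 0.18 (0.10 without shScr 1) and Aldoc at 0.09 (0.04 without shFabp7 2). These 2 abundant genes carry most of the sum. The lower astrocyte markers, named after their values were seen, included Gfap, whose promoter drives the shRNA, with 134, 161 and 168 CPM in shFabp7 cortex, against 249, 240.2 and 312 CPM in shScr cortex, without overlap. Its log2 fold change of -0.79 (SE 0.12) had an adjusted p of 0.0597 in edgeR's quasi-likelihood test and of 1.39e-07 in DESeq2. Aqp4 stood at -0.34, Sox9 at -0.32 and Slc1a3 at -0.16, each without overlap. Aldh1l1, also named after its values were seen, went the other way, at 0.24 without overlap. Oligodendrocyte markers were below 0 in 3 of 8 genes (median 0.07), endothelial markers in 2 of 7 (median 0.07), inhibitory neuron markers in 4 of 7 (median -0.08), striatal markers in 4 of 7 (median -0.05) and blood markers in 0 of 5 (median 0.24). The striatal sums were uneven within each group, with 471, 384 and 1208 CPM in shFabp7 and 1052, 427 and 618 CPM in shScr libraries. Of the 84 markers tested, 0 passed edgeR's quasi-likelihood test, 16 lower (19.05%) and 8 higher (9.52%) had an unadjusted p under 0.05, against 8.32% and 8.44% of all genes tested. DESeq2 passed 9 as lower (10.7%) and 5 as higher (5.95%), against 1.91% and 2.38% of the genes for which it gave an adjusted p. The part of cell types and of regional dissection in the levels of the ribosomal protein genes was not tested.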

How the data were processed

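The 6 RNA-seq libraries of mouse cortex were made with Illumina's stranded kit for messenger RNA from 0.5 µg of RNA each, per the labels' protocols. The deposited files hold raw counts per gene in the featureCounts layout, per the file headers, with no normalization. The build GRCm39 and the tools DESeq2, Subread 1.5.2, STAR 2.5.2b and Trimmomatic 0.36 appear in the submitters' processing notes, without their roles or order. The positions in the files matched the GRCm38 annotation GENCODE M21 for 91.4% of 49056 shared gene IDs (64 of 78 members), so coordinates are read as GRCm38. Strand and multi-mapping settings are not given in the sources used here. Symbols were found for 48970 of 49315 genes.

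Genes were tested by edgeR's quasi-likelihood F test (version 4.0.16, R 4.3.3; filterByExpr, TMM factors, robust fit, group alone), two-sided, with Benjamini-Hochberg adjustment over the 17185 genes tested and a threshold of 0.05. All 78 members were tested. SE is the log2 fold change over the square root of F. DESeq2 1.42.0, limma 3.58.1 and other filters, scalings and left-out libraries were alternatives. The code was tested on simulated data. TPM used the lengths in the files. Counting intervals were not computed, since replicate spread is given.

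The members and lists were chosen with earlier results of these data known. Named genes are Fabp7, in each subunit the 6 members of highest TPM and the 4 of lowest and highest log2 fold change, the role lists, paralog pairs, and for other lists the 2 of highest CPM. Promoter windows are the first listed per gene. Some genes are not reported here by name.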

Additional observations from a re-analysis of the deposited data

How the results depend on the processing

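The median log2 fold change of each subunit kept its direction under every alternative run, from -0.17 in both subunits (library totals with no factor, where the median of all genes was -0.06) to -0.09 in both (without shFabp7 2). The share ratio ranged from 0.868 to 0.913 in the large and 0.864 to 0.919 in the small subunit when 1 library was left out. Calls depended on the tool and filter. With no filter on low counts, 2 large (Rpl3, Rpl19) and 3 small subunit members (Rps4l and Rps19 among them) passed, all as lower. In that setting 824 of 30935 genes tested passed as lower and 793 as higher. DESeq2 passed 1 small subunit member (Rps4l), and leaving out 1 library gave 0 in the large and 0 to 1 in the small subunit. Over all genes the count of 20 became 679 with DESeq2, 1617 with no filter, 292 at a threshold of 0.1, and 0 to 900 when 1 library was left out (182 without shScr 1, 900 without shScr 2, 10 without shFabp7 1, 0 without shFabp7 2 or 3). The cause was not tested.
Replicate numbers are not said to pair the libraries, and same-numbered libraries correlated at 0.114, 0.240 and 0.0541, with shFabp7 3 closest to shScr 1 (0.160). With the replicate block, 629 genes and 1 small subunit member passed, and the other member calls were the same.
With library totals, the log2 fold change of Rpl29 was -0.012 and that of Larp1 -0.043. Leaving out 1 library turned the sign of these genes, whose lowest and highest values were -0.060 and 0.012 (Rpl23a), -0.045 and 0.045 (Rpl28), -0.092 and 0.019 (Rps15), -0.052 and 0.015 (Fau), -0.14 and 0.073 (Sesn3), -0.015 and 0.021 (Larp1), -0.17 and 0.011 (Gad1), -0.21 and 0.13 (Col1a2), -0.40 and 0.53 (Ppp1r1b), -1.30 and 0.031 (Penk) and -0.060 and 0.52 (Hba-a1). With 3 libraries a group and a median SE of 0.06 in the large and 0.07 in the small subunit, members near 0 cannot be placed above or below it.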
